A study of Mus musculus with 12 samples.

Results

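The 34 genes described here encode the machinery that shows protein fragments on the cell surface in the mouse: the heavy chains of the major histocompatibility complex (MHC) class I, their partner beta-2 microglobulin, the transporter and chaperones that load peptides, the immunoproteasome, the class II genes, and the transcriptional regulators of both branches. They were listed by name for these roles from the 48709 genes counted in each library. The list uses no threshold on a measured value, but it was drawn up with earlier results of these data known, so the counts below are descriptions of the list. Expression was measured by RNA sequencing of poly(A) RNA in 12 cultures of primary hippocampal neurons from embryonic day 17 (E17) embryos of CD1 mice, an outbred stock. All cultures received lipid nanoparticles at day 10 in vitro (DIV10) and were collected after 48 h, at DIV12. The 6 control cultures received a negative control oligonucleotide, and the 6 mimic cultures a miR-148a-3p mimic, synthetic RNA of this microRNA's sequence. According to the methods of the study, hippocampi of the embryos of a dam were pooled for a preparation, and the labels tie no culture to a preparation, so the P-values below measure the spread between these cultures, which may be technical.

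Class I molecules carry peptides of the cell's own cytosol and are displayed by nearly all nucleated cells, at low levels in most neurons. The proteasome cuts proteins into peptides, TAP1 and TAP2 pump them into the endoplasmic reticulum, and tapasin, calreticulin and ERp57 hold the empty class I molecule until a peptide fits. Class II molecules carry peptides from endosomes and are a feature of professional antigen-presenting cells, in the brain mainly activated microglia and border macrophages. Interferons raise both branches, with NLRC5 as the class I transactivator, CIITA as the class II transactivator, and the RFX complex (RFX5, RFXAP and RFXANK) as the DNA-bound platform that both use.

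Library totals ranged from 20018234 to 37149112 counts, with control replicate 1 the shallowest. Neuron markers summed to between 5340 and 5940 CPM (counts of a gene scaled to a common library total) in the control libraries and between 5530 and 5810 CPM in the mimic libraries, and astrocyte markers to 4830 to 5310 and 5650 to 6110 CPM, so the cultures held neurons together with glia. Microglia and macrophage markers summed to 20.8 to 25.4 CPM in the control libraries and to 18.1 to 43.9 CPM in the mimic libraries. In a bulk sample, fewer cells of a type and less RNA per cell cannot be told apart. On the second principal component of all genes, control replicate 1 lay at 47.03, whereas the other controls lay between -16.8 and 6.98.

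The letters of the reagent bear on the members directly, because a microRNA recognises transcripts through its seed, bases 2 to 8, usually in the 3' untranslated region (UTR). The mimic listed in the study's reagents was identical to mature mmu-miR-148a-3p in RefSeq (GRCm38.p6, chr6:51269829-51269850, minus strand). In both sequences the seed is in capitals, and it is assumed that the negative control listed is the one given to these cultures.
miR-148a-3p mimic: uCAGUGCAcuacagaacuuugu
negative control: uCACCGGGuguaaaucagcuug

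In the longest annotated 3' UTR (GENCODE M21, GRCm38), 10 of the 34 members held a match to the mimic seed, compared with 3304 of 15072 tested genes with a 3' UTR (21.9%). The match stands in capitals in the windows below. The same site recurs in the heavy chains H2-K1, H2-D1 and H2-Q7. Cd1d1, the class I-like gene that was higher in the mimic cultures, holds an 8-base site. H2-Q7, which was lower, and Canx, which was not called and is not shown, hold one too. The Pdia3 window holds a 7-base site.
H2-K1, chr17:33996293-33996314, minus strand: ccaggaccctgtcccTGCACTG
H2-D1, chr17:35267027-35267048, plus strand: ccaggaccctatcccTGCACTG
H2-Q7, chr17:35443512-35443533, plus strand: cctggaccctgtcccTGCACTG
H2-Q7, chr17:35443356-35443377, plus strand: acagctgcctggacTGCACTGA
Cd1d1, chr3:86996318-86996339, minus strand: tgttttatgggattTGCACTGA
Pdia3, chr2:121437804-121437825, plus strand: aaactgtttcttagcTGCACTG

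The other members with a match were H2-T23, Calr, Canx, H2-DMa and Ciita. Nlrc5, Psmb8, B2m, Cd74, H2-Aa, H2-Ab1 and H2-Eb1 held none. The seed of the negative control matched the 3' UTR of 1 member, Tap1, and 4.40% of the tested genes.

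All 34 members passed the filter on low counts (5 counts or more in 6 or more libraries) and were tested. At an adjusted P under 0.05 (quasi-likelihood test of edgeR with Benjamini-Hochberg adjustment over 18847 genes, used for every gene below), 20 members were lower in the mimic cultures, 3 were higher and 11 were not called. Over all genes tested, 22.2% were called in either direction, 10.7% as lower and 11.5% as higher. The median log2 fold change was -0.28 over the members and -0.012 over all genes tested. In CPM, the mimic libraries lay below every control library for 12 members and above every control library for 3. Of all genes tested, 5.83% were separated with the mimic libraries lower and 7.43% with the mimic libraries higher.

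**Figure D1:**
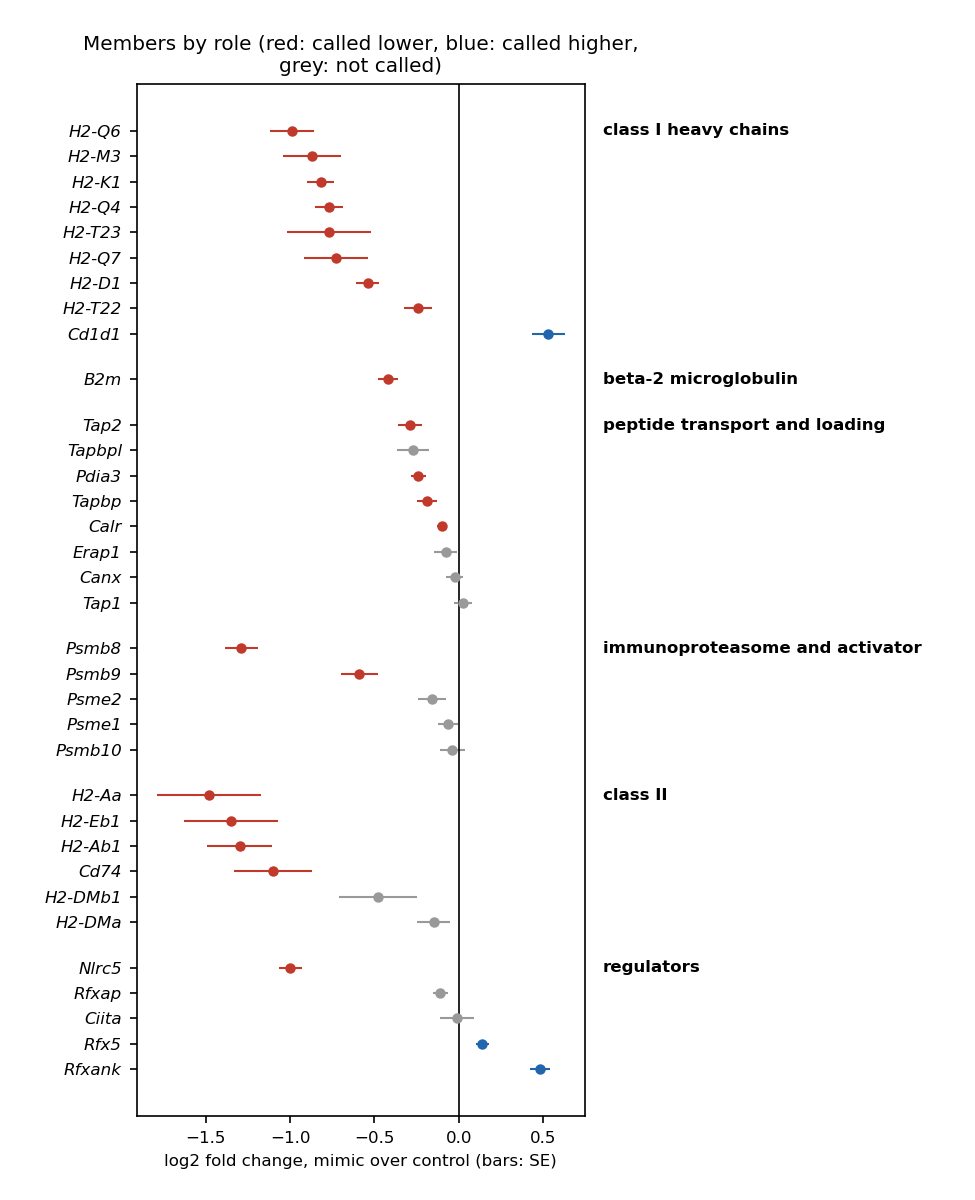
The log2 fold change of each member (mimic over control, x axis, points with SE bars) is plotted by role, in red where the gene was called lower, in blue where it was called higher and in grey where it was not called. Of the 34 members, 20 are red, and the 3 blue points are Cd1d1, Rfx5 and Rfxank.

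Of the 9 class I heavy chains, 8 were lower and 1 was higher, with a median log2 fold change of -0.77. B2m was lower. Among the 8 genes of peptide transport and loading, 4 were lower and 4 were not called, with a median of -0.14, but without mimic replicate 1 only 2 were lower. Of the 5 immunoproteasome and activator genes 2 were lower, and of the 6 class II genes 4 were lower, with medians of -0.16 and -1.20. Of the 5 regulators, 1 was lower, 2 were higher and 2 were not called, and 2 were lower without control replicate 1 or without mimic replicate 4. When a change above 1.2-fold was tested, 12 members were lower, among them 5 heavy chains and 0 genes of peptide transport and loading, and B2m was not called.

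Level per length, given as RPKM (CPM per kilobase of exon), set the abundant and rare members apart. In the control cultures Calr had a mean of 202 RPKM, B2m 156, Canx 130 and Pdia3 124, which are general chaperones of the endoplasmic reticulum apart from B2m. The heavy chain H2-D1 followed at 49.1 RPKM and H2-K1 at 25.7. The lowest means were those of H2-Q7 at 0.177 RPKM and Ciita at 0.193, and the class II chain H2-Ab1 stood at 0.705.

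**Figure D2:**
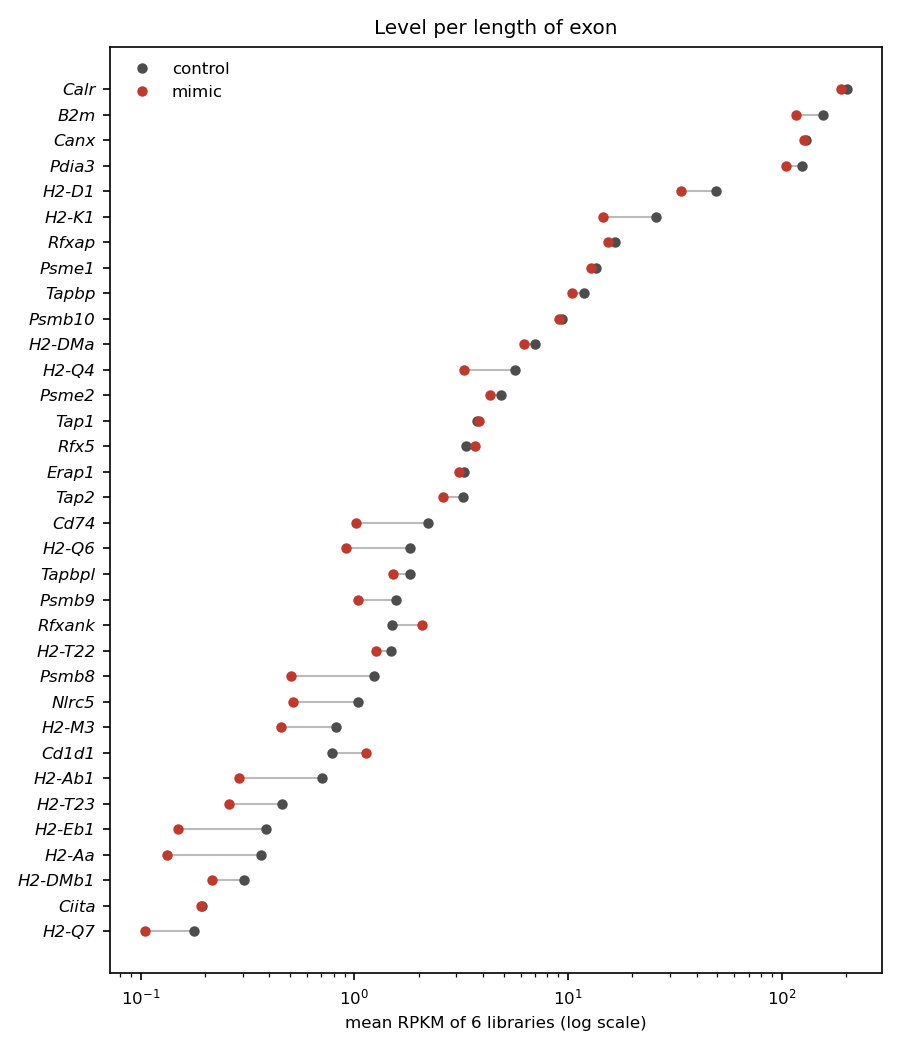
The mean RPKM of the 6 control and 6 mimic libraries (x axis, log scale, no error shown) is plotted for each member, ordered by control level. Members span from 0.177 RPKM (H2-Q7) to 202 RPKM (Calr) in the control cultures, and the grey line joins the means of both groups.

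The classical class I heavy chains present peptides to CD8 T cells, and both measured here fell in the mimic cultures. H2-K1 ranged from 70.3 to 88.9 CPM (median 72.6) in the control libraries and from 35.5 to 47.1 CPM (median 45.7) in the mimic libraries. Its log2 fold change was -0.82 (SE 0.079, adjusted P = 1.19e-06), so that its level fell by 43.4%. H2-D1 ranged from 121 to 142 CPM (median 124) and from 74.3 to 98.5 CPM (median 88.8), with a log2 fold change of -0.54 (SE 0.069, adjusted P = 2.33e-05). For both genes every mimic library lay below every control library, control replicate 2 was the highest of all, and mimic replicates 1 and 6 were the lowest. Both kept their call in all 22 alternatives to the analysis.

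The Qa, T and M genes are nonclassical class I heavy chains with narrower roles, such as the display of signal peptides by Qa-1 (H2-T23) and of formylated peptides by H2-M3. H2-Q4 ranged from 13.4 to 17.3 CPM (median 14.1) in the control libraries and from 7.12 to 9.91 CPM (median 8.76) in the mimic libraries, with a log2 fold change of -0.77 (SE 0.082, adjusted P = 2.35e-06). Its groups did not overlap. H2-T22 ranged from 4.65 to 5.74 CPM (median 5.02) and from 3.71 to 4.88 CPM (median 4.37), with overlapping groups, a log2 fold change of -0.24 (SE 0.083) and an adjusted P of 0.0459 by edgeR, which was lost in 14 of 22 alternatives. H2-Q6, H2-Q7, H2-T23 and H2-M3 had means between 17.7 and 84.6 counts and log2 fold changes of -0.99, -0.73, -0.77 and -0.87. The groups of H2-T23 overlapped, and its call (adjusted P = 0.0354 by edgeR) was lost in 10 of 22 alternatives.

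Cd1d1 encodes CD1d, a class I-like molecule that presents lipids to natural killer T cells and lies outside the H2 complex, and it was the only heavy chain of the 9 that was higher. It ranged from 1.66 to 2.29 CPM (median 1.98) in the control libraries and from 2.68 to 3.23 CPM (median 2.82) in the mimic libraries. The groups did not overlap, and the log2 fold change was 0.53 (SE 0.097, adjusted P = 0.000687 by edgeR), a call kept in all 22 alternatives. Of its 50-base stretches 19.1% also occur in Cd1d2, which had a mean of 0.1 counts.

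B2m encodes beta-2 microglobulin, the light chain that every class I molecule needs to reach the surface. It ranged from 117 to 149 CPM (median 135) in the control libraries and from 88.5 to 108 CPM (median 104) in the mimic libraries. No mimic library reached the lowest control, and the log2 fold change was -0.42 (SE 0.061, adjusted P = 8.32e-05). Its transcripts share no 50-base stretch with another gene.

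The summed level of the 9 heavy chains was 128 CPM in mimic replicate 1 and 127 CPM in mimic replicate 6, and lay between 151 and 165 CPM in the other mimic libraries, against 222 to 263 CPM in the control libraries. B2m was lowest in the same libraries, at 88.5 and 91.0 CPM. Mimic replicates 1 and 6 also had the highest values on the first principal component of all genes, 25.13 and 26.04, against 14.01 to 19.37 in the other mimic libraries.

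**Figure D3:**
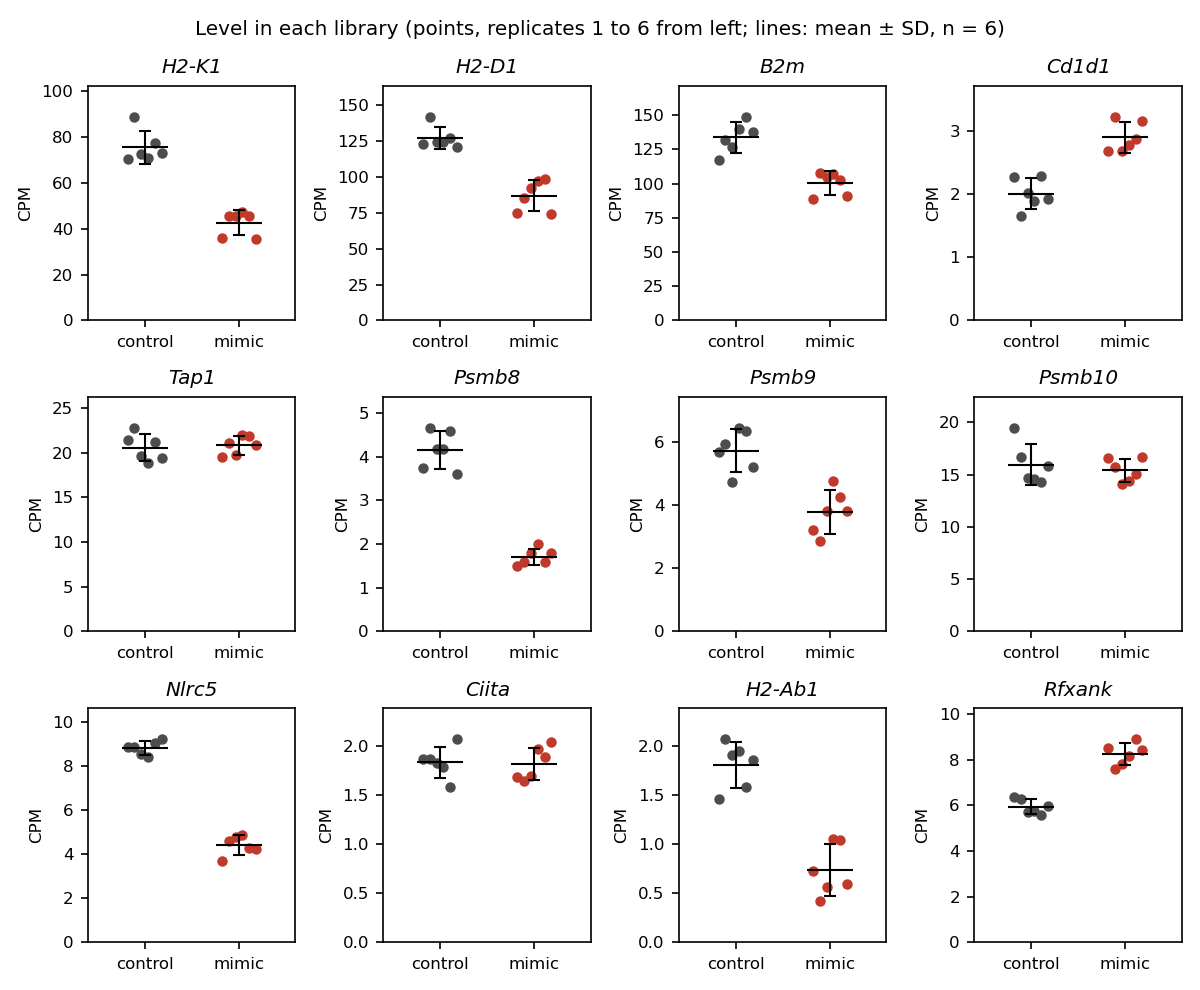
CPM (y axis, starting at 0) of 12 members is plotted for each of the 6 control (grey) and 6 mimic (red) libraries, with lines for the mean and SD. The groups are separate for H2-K1, H2-D1, B2m, Cd1d1, Psmb8, Nlrc5, H2-Ab1 and Rfxank and overlap for Tap1, Psmb9, Psmb10 and Ciita.

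Heavy chain genes resemble each other, which limits how reads of 50 bases can be assigned. Of the 50-base stretches of their annotated transcripts, 9.6% in H2-K1, 12.8% in H2-D1, 36.4% in H2-Q4, 35.0% in H2-Q6 and 53.5% in H2-T22 also occur in another gene. Part of this is overlap on the opposite strand and not resemblance, with Gm11131 for H2-Q4 (15.3%) and A930015D03Rik for H2-T22. How the counting treated reads with several matches is not given in the sources used here. The alleles of CD1 mice were not compared with the reference, so the values of the heavy chains, singly and summed, are uncertain. Of 16 further class I family genes, 10 were tested, 4 were lower and none was higher. H2-Q2 ranged from 3.47 to 5.10 CPM (median 4.33) in the control libraries and from 1.72 to 3.01 CPM (median 2.82) in the mimic libraries, without overlap, with a log2 fold change of -0.71. H2-M5 ranged from 3.38 to 4.61 CPM (median 4.05) and from 2.80 to 3.42 CPM (median 3.07), with a slight overlap and a log2 fold change of -0.38. Mr1, Hfe and Fcgrt, class I-like genes outside the H2 complex, were not called, with log2 fold changes of 0.18, 0.02 and 0.07.

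Of the peptide transporter, Tap2 was lower and Tap1 was not called. Tap1 and Tap2 encode the subunits of the peptide pump. Tap1 ranged from 18.8 to 22.8 CPM (median 20.4) in the control libraries and from 19.5 to 22 CPM (median 21) in the mimic libraries, with a log2 fold change of 0.024 (95% interval -0.08 to 0.13, adjusted P = 0.808 by edgeR). Tap2 ranged from 10.8 to 14 CPM (median 12) and from 8.79 to 10.9 CPM (median 9.89), with a log2 fold change of -0.29 (SE 0.072, adjusted P = 0.00621 by edgeR). The Tap1 groups lay on top of each other, and those of Tap2 overlapped only at their edges. A difference between the 2 genes was not tested.

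Tapbp encodes tapasin, which bridges the pump and the class I molecule, and Tapbpl its relative TAPBPR, which edits peptides. Tapbp ranged from 40.6 to 45.3 CPM (median 43.3) in the control libraries and from 31.9 to 42.5 CPM (median 38.5) in the mimic libraries, with a log2 fold change of -0.19 (SE 0.059, adjusted P = 0.0254 by edgeR), and the call was lost in 6 of 22 alternatives. Tapbpl ranged from 3.76 to 4.63 CPM (median 4.35) and from 2.71 to 4.25 CPM (median 3.53), with a log2 fold change of -0.27 and an adjusted P of 0.0559 by edgeR, which passed the threshold in 4 of 22 alternatives. Both genes overlapped between the groups.

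Pdia3 encodes ERp57, Calr calreticulin and Canx calnexin, chaperones that serve many glycoproteins besides class I. Pdia3 ranged from 347 to 414 CPM (median 396) in the control libraries and from 315 to 341 CPM (median 331) in the mimic libraries, with no overlap and a log2 fold change of -0.24 (SE 0.043, adjusted P = 0.000529 by edgeR). Calr ranged from 564 to 601 CPM (median 583) and from 527 to 553 CPM (median 547), also with no overlap, and its log2 fold change was -0.10 (SE 0.028, adjusted P = 0.0194 by edgeR). Calr thus had a small change with a narrow spread, and the call was lost in 4 of 22 alternatives. Canx ranged from 536 to 667 CPM (median 624) and from 581 to 619 CPM (median 596), the mimic libraries lying inside the control range, with a log2 fold change of -0.025 (SE 0.052, adjusted P = 0.795 by edgeR). Erap1, the aminopeptidase that trims peptides to class I length, ranged from 19.2 to 26.3 CPM (median 24) and from 20.8 to 25.3 CPM (median 22.6) and was not called (log2 fold change -0.079, adjusted P = 0.471 by edgeR).

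In the immunoproteasome, the subunits Psmb8, Psmb9 and Psmb10 replace the constitutive catalytic subunits Psmb5, Psmb6 and Psmb7. Psmb8 (LMP7) ranged from 3.61 to 4.67 CPM (median 4.18) in the control libraries and from 1.49 to 2.00 CPM (median 1.68) in the mimic libraries, so that every control was above every mimic library. Its log2 fold change of -1.29 (SE 0.097, adjusted P = 4.48e-08) was the lowest of the 5 genes, at 74 to 155 counts per control library and 45 to 64 per mimic library. Psmb9 (LMP2) ranged from 4.74 to 6.47 CPM (median 5.83) and from 2.88 to 4.79 CPM (median 3.82), with a log2 fold change of -0.59 (SE 0.11, adjusted P = 0.000965 by edgeR). Its groups met where mimic replicate 4 stood just above control replicate 3. Psmb10 (MECL-1) ranged from 14.3 to 19.5 CPM (median 15.3) and from 14.1 to 16.7 CPM (median 15.4), overlapping almost fully, with a log2 fold change of -0.039 (95% interval -0.18 to 0.10, adjusted P = 0.767 by edgeR).

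Each inducible subunit was set against the constitutive subunit it replaces, as a ratio of CPM within a library that is not corrected for length and is compared only between groups. The ratio of Psmb8 to Psmb5 ranged from 20.2% to 32.5% (median 28.1%) in the control libraries and from 10.3% to 13.5% (median 10.6%) in the mimic libraries. The mean log2 ratio differed by -1.25 (exact permutation test over all relabellings, two-sided, P = 0.00216, the smallest it can give, adjusted over 3 ratios 0.00325). For Psmb9 to Psmb6 the ranges were 5.10% to 7.25% (median 5.61%) and 3.03% to 5.06% (median 4.20%), with a difference of -0.58 and the same exact P = 0.00216 (adjusted 0.00325). In both ratios the groups did not overlap. For Psmb10 to Psmb7 the ranges of 17.2% to 23.2% (median 19.0%) and 15.9% to 19.0% (median 17.2%) overlapped, and the difference of -0.16 did not pass the threshold (exact permutation test, P = 0.0541). Of the 14 constitutive 20S subunits listed, 1 was called, Psmb7, as higher with a log2 fold change of 0.12, and none as lower.

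**Figure D4:**
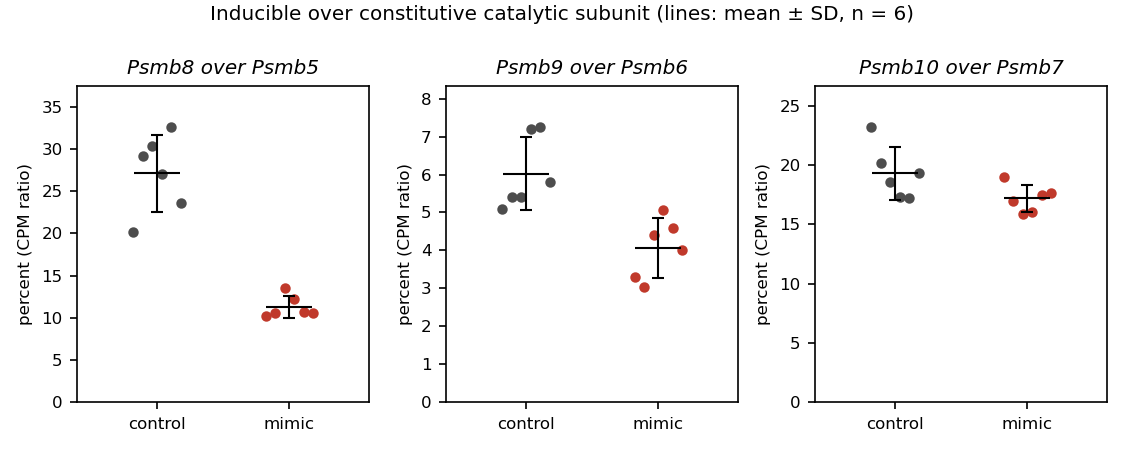
The ratio of each inducible catalytic subunit to its constitutive counterpart (y axis, percent, from CPM, starting at 0) is plotted per library, with lines for the mean and SD of 6. All mimic points lie below all control points for Psmb8 over Psmb5 and Psmb9 over Psmb6, and the groups overlap for Psmb10 over Psmb7.

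Psme1 and Psme2 encode the PA28 activator that opens the proteasome gate. Psme1 ranged from 27.0 to 34.9 CPM (median 28.3) in the control libraries and from 27.2 to 29.5 CPM (median 28.2) in the mimic libraries, and Psme2 from 7.16 to 10.2 CPM (median 8.28) and from 6.95 to 8.01 CPM (median 7.61). Neither was called, with log2 fold changes of -0.064 and -0.16. Control replicates 1 and 2 were the highest for both genes, and without these 2 libraries, left out together after the data had been seen, the median of the 5 genes moved to -0.048 and 2 were again called lower. None of the 7 other activator and assembly genes was called by edgeR, 0 had an unadjusted P under 0.05, and DESeq2 and limma-voom called 0.

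Tap1 and Psmb9 start next to each other on opposite strands, and their promoter windows in RefSeq overlap (Tap1 chr17:34187306-34187605, Psmb9 chr17:34187281-34187580). Psmb9 amounted to 24.2% to 34.4% of Tap1 in CPM in the control libraries (median 26.8%) and to 13.6% to 21.8% in the mimic libraries (median 18.8%). The groups did not overlap, but this pair was chosen after its values were seen and was not tested. The genes share 212 bases of exon on opposite strands, and whether the counting used the strand is not given in the sources used here.

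Apart from H2-DMa, the class II genes were present at low counts. Cd74, the invariant chain that guides class II to endosomes, ranged from 2.07 to 5.65 CPM (median 3.60) in the control libraries and from 0.993 to 2.91 CPM (median 1.64) in the mimic libraries, with a log2 fold change of -1.10 (SE 0.23, adjusted P = 0.00238 by edgeR). H2-Aa, the alpha chain of I-A, ranged from 0.454 to 2.08 CPM (median 1.51) and from 0.141 to 0.833 CPM (median 0.484), with a log2 fold change of -1.48 (SE 0.31, adjusted P = 0.00224 by edgeR). H2-Ab1, the beta chain of I-A, ranged from 1.46 to 2.08 CPM (median 1.89) and from 0.420 to 1.06 CPM (median 0.663), with a log2 fold change of -1.30 (SE 0.19, adjusted P = 6.34e-05). H2-Ab1 was the class II gene whose groups did not overlap. H2-Eb1, the beta chain of I-E, ranged from 0.454 to 1.05 CPM (median 0.739) and from 0.141 to 0.565 CPM (median 0.260), with a log2 fold change of -1.35 (SE 0.28, adjusted P = 0.00198 by edgeR).

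Behind these 4 chains stood few reads: H2-Eb1 had 9 to 39 counts per control library and 4 to 19 per mimic library, and H2-Aa 9 to 68 and 4 to 28. The overlap in Cd74, H2-Aa and H2-Eb1 came from control replicate 1, the lowest control for all 4 chains. All 4 calls were kept in the 22 alternatives, with log2 fold changes from -1.68 to -0.96.

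H2-DMa and H2-DMb1 encode H2-DM, which exchanges the invariant chain remnant for peptide. H2-DMa ranged from 19.8 to 32.0 CPM (median 22.6) in the control libraries and from 20.1 to 22.9 CPM (median 21.6) in the mimic libraries and was not called (log2 fold change -0.15, adjusted P = 0.303 by edgeR). It overlaps Brd2, a gene with a mean of 11065.2 counts, by 360 exonic bases on the opposite strand, so reads of that neighbour cannot be set aside. H2-DMb1 ranged from 0.251 to 0.707 CPM (median 0.533) and from 0.291 to 0.446 CPM (median 0.348), with a log2 fold change of -0.48 that did not pass (adjusted P = 0.153 by edgeR). Among 10 tested genes of other class II and endosomal processing roles 1 was lower and 1 higher, and Ctsl, the protease cathepsin L, was the higher gene, at 112 to 125 CPM (median 121) in the control libraries and 144 to 164 CPM (median 151) in the mimic libraries, with a log2 fold change of 0.35.

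Markers of the cells that usually carry class II were examined beside these genes. The summed level of Cd74, H2-Aa, H2-Ab1 and H2-Eb1 was 4.44 to 10.2 CPM in the control libraries and 2.14 to 4.07 CPM in the mimic libraries. Of the 14 microglia and macrophage markers, 3 were lower (C1qa, C1qb and C1qc, with log2 fold changes of -0.79, -0.50 and -0.78), 11 were not called and none was higher. Mimic replicate 2 had the highest microglia sum of all libraries, 43.9 CPM, and the highest class II sum of the mimic libraries, 4.07 CPM. Most of that class II sum was Cd74, at 2.91 CPM. Its H2-Ab1 (0.420 CPM) was the lowest of the mimic libraries. Its H2-Aa (0.452) lay below the mimic median of 0.484, and its H2-Eb1 (0.291) above that of 0.260. Mimic replicate 2 was the highest mimic library for Cd68 (12.2 CPM), Csf1r (9.34), Tyrobp (4.65), Ptprc (4.56) and Trem2 (3.98). It was the lowest for Aif1 (2.71), Fcrls (1.55) and C1qc (0.646). Of 7 markers of dendritic, B and T cells, 2 passed the filter and none was called, with sums of 0.959 to 1.65 CPM in the control libraries and 0.927 to 1.52 CPM in the mimic libraries, Ms4a1, Cd3d and Cd3g being near 0. The part of these cells in the class II result was not tested.

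**Figure D5:**
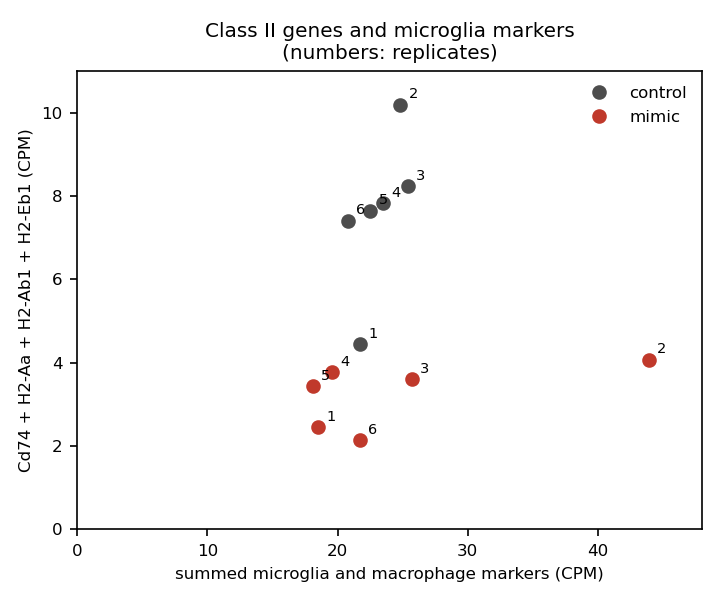
The summed CPM of 4 class II genes (y axis) is plotted against the summed CPM of 14 microglia and macrophage markers (x axis) for each library, numbered by replicate. The mimic libraries (red) lie between 2.14 and 4.07 CPM and the controls (grey) between 4.44 and 10.2 CPM, and mimic replicate 2 stands apart on the x axis at 43.9 CPM.

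Other cell markers moved as well. Of the 8 neuron markers, Tubb3 was lower (log2 fold change -0.32), Gad2 was higher (0.14) and 6 were not called. Of the 8 astrocyte markers 6 were higher and Gfap was lower, and 5 of 8 oligodendrocyte lineage markers were higher. Of the 6 endothelial markers 5 were tested and 2 were lower, Kdr, with means of 58.6 CPM in the control and 37.6 CPM in the mimic libraries, and Flt1, with 0.662 and 0.397 CPM. Kdr made up nearly all of their sum, Pecam1, Cdh5 and Tek were not called at control means of 0.718 CPM or less, and Cldn5 was near 0. Mesenchymal markers summed to 201 to 268 CPM in the control and 98.1 to 226 CPM in the mimic libraries, with 2 of 8 lower, Acta2 and Tagln. Their part in the class I result was not tested.

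Of the transactivators, Nlrc5 was lower and Ciita was not called. Nlrc5 ranged from 8.38 to 9.23 CPM (median 8.84) in the control libraries and from 3.67 to 4.88 CPM (median 4.44) in the mimic libraries, with a log2 fold change of -1.0 (SE 0.069, adjusted P = 1.48e-08). The controls were tightly grouped, and every mimic library was far below them. Ciita ranged from 1.59 to 2.08 CPM (median 1.85) and from 1.65 to 2.04 CPM (median 1.79), with a log2 fold change of -0.010 (95% interval -0.21 to 0.19, adjusted P = 0.974 by edgeR). Ciita shares 329 exonic bases with Dexi on the opposite strand, a gene with a mean of 488.6 counts against 54.4 for Ciita. The difference between the changes of Nlrc5 and Ciita was not tested.

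Of the RFX subunits, Rfxank and Rfx5 were higher and Rfxap was not called. Rfxank ranged from 5.60 to 6.36 CPM (median 5.87) in the control libraries and from 7.59 to 8.93 CPM (median 8.30) in the mimic libraries, with a log2 fold change of 0.48 (SE 0.061, adjusted P = 1.81e-05). Its groups were apart, but 33.8% of its exonic bases overlap Nr2c2ap on the opposite strand, which had a mean of 94.7 counts. Rfx5 ranged from 17.9 to 18.8 CPM (median 18.4) and from 19.3 to 21.1 CPM (median 20.3), with no overlap, a log2 fold change of 0.14 (SE 0.039, adjusted P = 0.0130 by edgeR), and a call lost in 3 of 22 alternatives. Rfxap ranged from 35.1 to 38.9 CPM (median 37.0) and from 32.3 to 37.8 CPM (median 33.7), with overlapping groups and a log2 fold change of -0.11 that did not pass (adjusted P = 0.0884 by edgeR).

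Upstream of these regulators stand the interferon receptors, the JAK kinases, the STAT and IRF factors, and the NF-kB and NF-Y factors that bind class I and II promoters. Of 19 such genes tested, 5 were lower (Irf1, Stat2, Irf9, Nfya and Jak1) and 2 were higher (Nfkb1 and Irf2). Irf1, an interferon-induced activator of class I genes, ranged from 12.7 to 14.4 CPM (median 13.4) in the control libraries and from 8.11 to 11.3 CPM (median 9.15) in the mimic libraries, with a log2 fold change of -0.52 (SE 0.074). Its groups did not overlap. The receptors Ifngr1, Ifngr2, Ifnar1 and Ifnar2 were not called, with log2 fold changes of 0.013, -0.020, -0.0067 and -0.11. Of the 4 class I receptors and partners listed, 1 was tested and was not called.

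Calls were counted for members with and without a mimic seed site. With a site, 6 of 10 were lower, 1 was higher and 3 were not called, with a median log2 fold change of -0.19. Without a site, 14 of 24 were lower, 2 were higher and 8 were not called, with a median of -0.35. Over all genes tested with a 3' UTR, 636 of 3304 with a site were lower and 386 were higher, with a median of -0.035. Without a site, 1265 of 11768 were lower and 1665 were higher, with a median of 0.0013. The members with the lowest log2 fold changes, H2-Aa, H2-Eb1, H2-Ab1, Psmb8 and Cd74, had no site. Of the 3 members with 2 sites, H2-Q7 was lower, and Canx and Ciita were not called.

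Promoters are shown because heavy chains, B2m and class II chains were lower together and their promoters are known for shared elements, a kB site and an interferon response element upstream and the S, X and Y boxes near the start. A window of 250 bases before to 50 after the start was found in RefSeq (GRCm38.p6) for 26 of the 34 members. Cd74, H2-Ab1, Tapbpl, Ciita, Cd1d1, Nlrc5, Tap2 and Rfxap had no entry. Capitals mark matches on either strand to GGGNNTTCC (kB-like), CTGATTGG (Y box), GAAANNGAA (core of an interferon response element), TTCNNNGAA (STAT site) or TGACGTCA (the cyclic AMP element, also the X2 box).
H2-K1, chr17:34000298-34000597, minus strand: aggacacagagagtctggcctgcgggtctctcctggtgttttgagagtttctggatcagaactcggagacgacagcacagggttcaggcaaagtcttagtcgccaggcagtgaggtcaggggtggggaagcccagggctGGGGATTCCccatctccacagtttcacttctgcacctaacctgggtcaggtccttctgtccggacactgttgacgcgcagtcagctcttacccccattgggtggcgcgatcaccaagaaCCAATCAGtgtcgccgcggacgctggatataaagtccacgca
H2-D1, chr17:35262844-35263143, plus strand: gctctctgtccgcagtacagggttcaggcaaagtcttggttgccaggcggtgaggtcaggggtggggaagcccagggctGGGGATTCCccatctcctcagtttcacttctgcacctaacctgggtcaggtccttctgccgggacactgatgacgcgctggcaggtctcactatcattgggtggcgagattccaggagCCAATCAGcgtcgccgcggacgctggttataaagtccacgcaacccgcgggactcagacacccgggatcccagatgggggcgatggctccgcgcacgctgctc
B2m, chr2:122147437-122147736, plus strand: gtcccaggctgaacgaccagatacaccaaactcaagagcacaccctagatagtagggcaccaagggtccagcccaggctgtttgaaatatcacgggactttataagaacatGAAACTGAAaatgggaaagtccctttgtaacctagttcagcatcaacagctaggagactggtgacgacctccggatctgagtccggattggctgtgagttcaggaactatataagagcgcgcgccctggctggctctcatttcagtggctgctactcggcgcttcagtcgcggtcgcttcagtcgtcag
H2-Aa, chr17:34287774-34288073, minus strand: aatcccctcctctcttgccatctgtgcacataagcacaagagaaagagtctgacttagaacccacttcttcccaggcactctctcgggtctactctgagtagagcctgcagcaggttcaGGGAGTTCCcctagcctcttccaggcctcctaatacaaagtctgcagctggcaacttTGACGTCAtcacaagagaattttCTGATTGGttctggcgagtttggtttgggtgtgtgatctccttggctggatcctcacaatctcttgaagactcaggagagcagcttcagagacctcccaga
Tap1, chr17:34187306-34187605, plus strand: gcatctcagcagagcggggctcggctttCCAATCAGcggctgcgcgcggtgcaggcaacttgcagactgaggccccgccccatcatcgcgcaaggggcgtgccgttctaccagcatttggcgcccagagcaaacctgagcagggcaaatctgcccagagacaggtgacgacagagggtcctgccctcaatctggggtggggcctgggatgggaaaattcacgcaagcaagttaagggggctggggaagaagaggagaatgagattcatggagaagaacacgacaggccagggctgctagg

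The kB-like letters occurred in 6 of the 26 members (H2-K1, H2-D1, H2-Q4, H2-Q6, H2-Q7 and H2-Aa) and in 6.58% of the promoters of 27025 genes. All 6 were lower, as were 16 of the 26 members with a promoter. The Y box letters, counted anywhere in the window, occurred in 10 of 26 members and 4.70% of all promoters. Of these 10, 8 were lower, the others being Tap1 and Canx. Not all matches lay just upstream of the start. They stood 222 to 215 bases upstream in Tap1, 178 to 171 in Canx, and after the start in the H2-K1 window shown. The interferon response core, counted only as the letters GAAANNGAA on either strand, occurred in 5 of 26 members and 9.76% of all promoters. Of these 5, 3 were lower and 2 were not called. The stretch gtttcacttct in the windows of H2-K1, H2-D1, H2-Q4, H2-Q6, H2-Q7 and H2-M3 differs from these letters and was not counted. The count therefore does not show that these promoters lack an interferon response element. The STAT site occurred in 2 members, both lower, and 9.55% of all promoters, and TGACGTCA in 1 member, H2-Aa, which was lower, and 2.03%. The Y box of Tap1 and that of Psmb9 were the same 8 bases (chr17:34187334-34187341), read from either side. Since the windows of H2-K1, H2-D1, H2-Q4, H2-Q6 and H2-Q7 resemble each other closely, their matches in these counts are not independent.

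By position, 18 members lie on chromosome 17 between 33915899 and 37274484 (GRCm38), from the first member, Tapbp, to the last, H2-M3. Of these, 15 were lower and none was higher, with a median log2 fold change of -0.75. Of the 16 members on other chromosomes, 5 were lower and 3 were higher, with a median of -0.088. Of the 122 other tested genes within the same stretch, 17 were lower (13.9%) and 6 were higher (4.92%), with a median of -0.045. These other genes include further MHC genes. Of those, H2-Q1, H2-Q2, H2-Q10 and H2-M5 were lower, and H2-T10, H2-T24, H2-Ob and H2-DMb2 were not called.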

How the data were processed

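Poly(A) RNA was sequenced with a TruSeq v2 kit as 50-base single-end reads, per the labels. The submitters' processing notes name FastQC 0.11.5, STAR 2.5.2b, featureCounts (Subread 1.5.1) and mm10. The authors deposited raw counts per gene and library, which were the unit used here. Strand and multiple-match settings are not given in the sources used here, and the series table of normalized values was not used. Symbols came from GENCODE M21 (48349 of 48709 genes named).

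A gene needed 5 counts or more in 6 or more libraries and was then tested with edgeR 4.0.16 (TMM factors, robust quasi-likelihood F-test, Benjamini-Hochberg, R 4.3.3). The test was checked on simulated data. CPM used TMM-scaled totals. Totals of 20018234 to 37149112 counts set the precision. Groups were the 6 control and 6 mimic samples of the labels. Alternatives were DESeq2 1.42.0, limma-voom 3.58.1, other factors and filters, a minimum fold, a replicate block and leaving out libraries. The members and lists were chosen with earlier results of these data known. Values per library were given for members averaging 100 counts or more, the regulators and class II genes, and from the other pathway lists for called genes of that mean with an absolute log2 fold change of at least 0.3. Cd1d1, Psmb8, and other genes named outside this rule were chosen after their values were seen. In addition, 2 genes were dropped from the other lists and are not reported here.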

Additional observations from a re-analysis of the deposited data

Results flagged for a closer look

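A single library stood apart from the other 5 of its group for 4 member genes, by Dixon's gap test at its 95% limit for 6 samples. Control replicate 2 was high for H2-K1 (88.9 CPM, next 77.3), for H2-D1 (142 CPM, next 127) and for H2-Q4 (17.3 CPM, next 14.7). Mimic replicate 3 was high for H2-Eb1 (0.565 CPM, next 0.291). Chance alone passes about 1 in 20 groups, and 74 gaps were examined, so that 3.7 would be expected. The calls of these 4 genes were kept with either library left out.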

How the results depend on the processing

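The 20 lower and 3 higher members ranged over the leave-one-out fits from 17 to 21 and from 3 to 3, and DESeq2 and limma-voom gave 20 and 3. Of 748 comparisons of a member with an alternative, 687 kept the call and direction, 41 lost the call, 10 gained one and 10 changed sign, all of the last in genes that were not called. Depth limits the members with fewer than 100 counts on average, namely Psmb8, H2-Q6, Cd74, Cd1d1, Ciita, H2-Ab1, H2-T23, H2-Aa, H2-M3, H2-Q7, H2-Eb1 and H2-DMb1. The cause of the shifts below was not tested.

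When a change above 1.2-fold was tested, 12 members were lower, with 5 heavy chains, 0 for B2m, 0 in peptide loading, 1 higher regulator, 0 lower and 0 higher in other class II genes, 0 higher constitutive subunits, and 1 lower and 0 higher upstream genes, of 352 lower and 683 higher genes in all. Without mimic replicate 1, loading genes lower were 2, and over all leave-one-out fits 2 to 5. Lower regulators were 2 with upper-quartile factors and 1 to 2 in the leave-one-out fits, and higher regulators were 1 without a filter. The median of other class I genes was -0.13 at 10 counts or more. That of other class II genes was 0.015 with limma-voom and 0.0003 to 0.061 in the leave-one-out fits. The upstream median was -0.039 with upper-quartile factors and -0.029 to -0.013 in the leave-one-out fits. The median over all genes was -0.0091 with RLE factors, -0.030 with upper-quartile factors, -0.0085 with library totals or limma-voom, -0.029 without a filter, -0.009 with DESeq2, and -0.016 to -0.0089 in the leave-one-out fits. The Psmb10 to Psmb7 difference was -0.20 to -0.11 when each library was left out, and passed the exact permutation test when mimic replicate 1 or control replicate 4 or 5 was left out.

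With the replicate number as a block, 17 members were lower and 2 higher, with 1 higher regulator, 1 higher upstream gene and a median of -0.009 over all genes. H2-T22, H2-T23, Calr and Rfx5 lost their call. The numbers do not pair the samples (correlation of same-numbered deviations -0.0385 to 0.0928), and no control library correlated best with the mimic library of its own number.

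With each library left out, the log2 fold change of Canx ranged from -0.059 to 0.0024, that of Psmb10 from -0.069 to 0.022 and that of Ciita from -0.052 to 0.028, with a changed sign for Canx without control replicate 4, for Psmb10 without control replicate 1, and for Ciita without control replicate 6 (0.028) or mimic replicate 1 (0.010), 2 (0.017) or 3 (0.013). With control replicates 1 and 2 left out together, an alternative chosen after seeing the data, 19 members were lower and 3 higher, Psmb10 was 0.053, Psme1 0.032, H2-DMa 0.0077 and Ciita 0.0013, the median of the immunoproteasome group was -0.048, and other class I genes had 1 higher call, other class II genes 2 lower and 2 higher, and constitutive subunits 2 higher.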
